A study of Mus musculus with 4 samples.

Results

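The nuclei described here were the GCmat1 nuclei, the larger cluster of mature adult-born granule cells in the study, that carried no pseudo-time value in the deposited expression table. There were 220 of them among 3356 GCmat1 nuclei and 14367 nuclei in all. At week 8, 216 of 2927 GCmat1 nuclei were of this kind, or 7.38% (95% exact Clopper-Pearson interval 6.46 to 8.39%). At week 4 there were 4 of 403, or 0.993% (0.271 to 2.52%), and none came from weeks 1 and 2. The study's methods state that GCmat1 nuclei with a strong signal of ventral genes were left out of the trajectory. The number given there is larger than 220. Whether some of the nuclei meant there carry a pseudo-time here was not resolved. Differences in gene level between the 220 and the GCmat1 nuclei with a pseudo-time are taken to describe how the 220 were chosen. No test of such a difference was made. The nuclei without pseudo-time are called ventral-like nuclei below, and the other 2711 GCmat1 nuclei of week 8 are called trajectory nuclei.

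The study profiled nuclei of neurons born in the adult mouse dentate gyrus. Young adult mice of both sexes, on a C57Bl/6J background, carried a tamoxifen-inducible Cre recombinase active in radial glia-like stem cells and the CAGfloxStopSun1sfGFP reporter, and received tamoxifen. The progeny of the recombined cells then carry a green fluorescent protein in the nuclear envelope, by which nuclei were sorted. Left dentate gyri were taken 1, 2, 4 or 8 weeks later, with 4 of them pooled in 1 single-nucleus RNA library (10x Genomics, 3′ chemistry) per week. All groups share this genotype and treatment, there was no untreated group, and a labelled nucleus shows only that a cell descended from a recombined cell, and the labels do not give its position along the hippocampus.

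The hippocampus is a long structure whose dorsal pole is best known for spatial memory and whose ventral pole is best known for anxiety-like and stress-related behaviour. Granule cells, the principal neurons of the dentate gyrus, express partly different genes at the poles. The markers set for these nuclei were Trhr, the receptor of thyrotropin-releasing hormone, Chrm3, the M3 muscarinic acetylcholine receptor, and Cdh13, the lipid-anchored T-cadherin. Trhr and Chrm3 both couple to Gq proteins, which activate phospholipase C and release calcium from internal stores.

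Levels are unique molecular identifiers (UMIs, each a captured RNA molecule) summed over nuclei and given as counts per 1000000 UMIs of the same nuclei (CPM). The main comparison was made within the week 8 library. Each week is 1 pool with no replicate, and the 95% intervals of levels and of ratios cover counting error only. The 216 ventral-like nuclei held 2398311 UMIs and the 2711 trajectory nuclei 22925134. The ventral-like nuclei were deeper, with a median of 10885 UMIs (range 4342 to 24200) and 3380.5 detected features, against 7846 UMIs and 2745 features. Malat1, an abundant nuclear RNA, took 4.95% of UMIs in ventral-like and 7.48% in trajectory nuclei. Ventral-like nuclei with a sex call numbered 172 male and 34 female, 83.5% male (77.7 to 88.3%), against 86.7% of trajectory nuclei (85.3 to 88.0%). No barcode of a week 8 ventral-like nucleus occurred in another library. Across the kept nuclei of the series, 22 barcodes were shared between libraries. The part of depth and of the Malat1 share in the differences below was not tested beyond the alternatives given after the report.

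The 3 markers were all higher in ventral-like nuclei. Trhr (mm10, chromosome 15, 44196135 to 44235912) had 133 UMIs in ventral-like nuclei, a level of 55.5 CPM (46.4 to 65.7), and 37 UMIs, 1.61 CPM (1.14 to 2.22), in trajectory nuclei, which is 34.4 times higher (23.7 to 50.9). Chrm3 (chromosome 13, 9875486 to 10360847) stood at 112 CPM (99.2 to 126) against 2.88 CPM (2.23 to 3.66), 39.0 times higher (29.7 to 51.8). Cdh13 (chromosome 8, 118283733 to 119324921) was well detected in both groups, at 491 CPM (463 to 520) against 139 CPM (134 to 143), 3.54 times higher (3.31 to 3.79). The 3 ratios were also above 1 in male nuclei alone (Trhr 32.4, Chrm3 37.2, Cdh13 3.58) and in female nuclei alone (53.3, 48.0 and 3.63).

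Within the ventral-like nuclei the markers were not evenly spread. A UMI of Trhr was found in 82 of 216 nuclei, 38.0% (31.5 to 44.8%), with at most 7 UMIs in a nucleus, and also 82 nuclei held a UMI of Chrm3, with at most 21. Cdh13 was detected in 93.1% of nuclei (88.8 to 96.1%), with a median of 5 UMIs and at most 21. In trajectory nuclei the shares were 1.11% for Trhr, 1.66% for Chrm3 and 45.2% for Cdh13. Thinned to 2000 UMIs in every nucleus, the share for Trhr was 10.6% against 0.406%, for Chrm3 16.7% against 0.516% and for Cdh13 60.2% against 20.9%. As a background for free RNA, none of the 48 oligodendrocytes and their precursors of week 8 held a UMI of Trhr, which allows a share of up to 6.25% of nuclei, with a median depth of 5107.5 UMIs. Those glia did hold Chrm3 (12.5% of nuclei) and Cdh13 (68.8%) and cannot serve as a blank for these genes. All 3 markers were found together in 41 ventral-like nuclei, exactly 2 in 78, exactly 1 in 86 and none in 11. In trajectory nuclei the same numbers were 3, 47, 1196 and 1465.

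The other ventral genes were higher and the dorsal genes lower, which describes how the nuclei were chosen and is no separate support. Nr2f2, the nuclear receptor COUP-TFII, had 38 UMIs in ventral-like and 33 in trajectory nuclei, 11.0 times higher (6.72 to 18.1). Grp, the gastrin-releasing peptide, had 19 and 58 UMIs, 3.13 times higher (1.76 to 5.34). Both were below the mean level of 20 CPM used to count genes. The level of Grp was 7.92 CPM (4.77 to 12.4). Its interval overlapped the 4.46 CPM (2.96 to 6.44) of the trajectory nuclei latest in pseudo-time, described below. All 4 dorsal genes were lower. Gsg1l, an auxiliary subunit of AMPA receptors, was 8.60 times lower (5.55 to 14.1), Spata13, an exchange factor for small GTPases, 5.34 times (3.60 to 8.28), Lct, the lactase gene, 3.84 times (2.67 to 5.72) and Stra6, the receptor of retinol-binding protein, 1.71 times (1.25 to 2.41). No UMI of these 4 genes was found in 67.1% of ventral-like nuclei and in 29.4% of the shallower trajectory nuclei.

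Most genes past the level filter differed by less than 1.5-fold between the groups. Of 5758 genes with a mean of both levels of at least 20 CPM, 284 (4.93%) were at least 1.5-fold higher in ventral-like nuclei and 225 (3.91%) at least 1.5-fold lower, and the median ratio was 1.01. These percentages are the background against which the counts of gene lists below are read. A ratio of at least 2-fold was seen for 111 genes higher and 71 lower, and of at least 5-fold for 23 and 8. Computed in each sex, 271 of the 284 higher and 222 of the 225 lower genes had the same direction in male and female nuclei, and 190 and 150 passed 1.5-fold in both. Only 34 female ventral-like nuclei entered these values.

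Besides Chrm3 and Trhr, the genes with the largest ratios upward were of mixed function. Pde1a, a calcium- and calmodulin-dependent phosphodiesterase that breaks down cyclic nucleotides, was the one detected in every ventral-like nucleus, with 1 to 37 UMIs and a median of 6. Its level was 658 CPM (625 to 691) against 59.4 CPM (56.3 to 62.7), 11.1 times higher (10.3 to 11.9), and 18.9% of trajectory nuclei held a UMI of it (17.5 to 20.4%). Thinned to equal depth, Pde1a was found in 71.8% of ventral-like and 8.12% of trajectory nuclei. Stk32b, a serine/threonine kinase, was 24.0 times higher (17.7 to 32.8), at 63.8 against 2.66 CPM. Scn9a, which encodes the sodium channel Nav1.7, was 8.33 times higher (7.16 to 9.69). Gm13629, which overlaps Scn9a on the opposite strand, was 9.82 times higher. The study's methods state default parameters for the counting without writing out the strand setting. That setting was not checked, so the pair was not told apart here. Ano2, a calcium-activated chloride channel, was 7.40 times higher and its relative Ano4 7.34 times. Nhs and Cobll1, both linked to the actin cytoskeleton, were 11.7 and 10.9 times higher. Further genes among the 15 largest were Mgat4c, of a family of N-acetylglucosaminyltransferases (9.69 times), Adamts18, a secreted metalloprotease (7.50 times), Col19a1, a collagen (6.99 times), and Epb4.1l4a, of the band 4.1 family of membrane-cytoskeleton linkers (5.93 times). In female nuclei alone Cobll1 was 48.0 times, Stk32b 49.96 times and Mgat4c 16.2 times higher. These values rest on only 34 female ventral-like and 324 female trajectory nuclei, and a difference between the sexes was not tested.

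The genes with the largest ratios downward were also of mixed function. Clmp, an adhesion molecule of the immunoglobulin superfamily (chromosome 9, 40685962 to 40785319), had no UMI in any of the 216 ventral-like nuclei and 1784 UMIs, 77.8 CPM (74.2 to 81.5), in trajectory nuclei, of which 34.0% held at least 1. Taking 3 counts as the limit of a count of 0 over the group, Clmp was at least 62.2-fold lower. Robo3, a guidance receptor of the Robo family, had 6 UMIs against 949 and was 16.5 times lower (7.57 to 45.2). Syndig1, a protein of excitatory synapses that binds AMPA receptors, was 8.93 times lower (6.24 to 13.3), and Cdh18, a cadherin, 8.42 times (5.31 to 14.3). Stat3, a transcription factor of cytokine signalling, was 7.27 times lower (4.52 to 12.5), and Grm3, a metabotropic glutamate receptor that couples to Gi proteins, 5.45 times (3.70 to 8.37). Gsg1l and Spata13, described above, were also among the 15 largest. The others were Fstl4 (4.39 times), Olfm3 (4.35), Gprc5b (4.22), Mfsd4 (4.06), Timp3 (3.91), Lct and Ntng1 (3.79). In female nuclei alone the ratio of Gprc5b was 0.52 (0.23 to 1.01), that of Mfsd4 0.098 (0.020 to 0.29) and that of Spata13, with 1 UMI, 0.048 (0.0012 to 0.27). Timp3, an inhibitor of metalloproteases, overlaps Syn3 on the opposite strand. Fstl4 and Ntng1 were lower without being lost, with 115 against 503 CPM for Fstl4 and 121 against 459 CPM for Ntng1, the netrin-G1 adhesion protein.

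**Figure D1:**
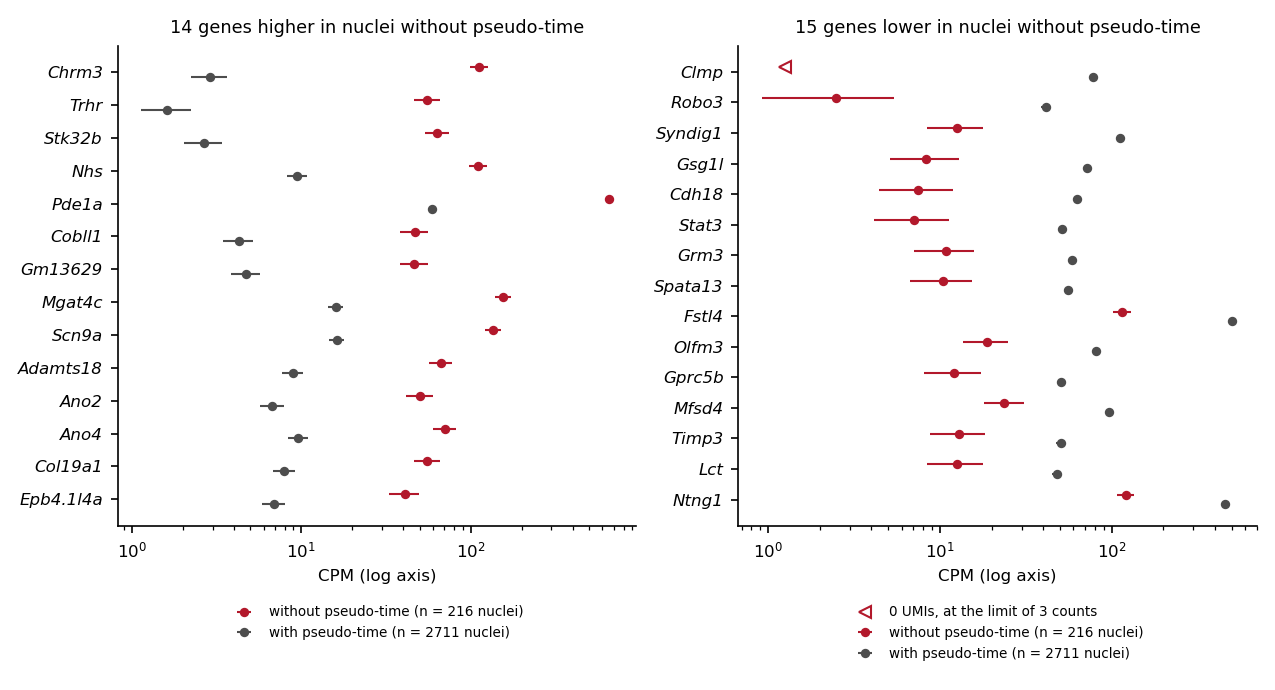
Summed levels in week 8 GCmat1 nuclei without pseudo-time (red) and with pseudo-time (grey), for 14 of the 15 genes with the largest ratio upward and the 15 downward. The horizontal axis is CPM on a log scale, points are levels of the pooled nuclei and bars their 95% exact Poisson intervals, which cover counting error only. Chrm3 and Trhr lie farthest apart among the higher genes, and Clmp, with 0 UMIs, is drawn at the limit of 3 counts.

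Taken per nucleus, the 15 higher genes set most ventral-like nuclei apart from most trajectory nuclei, with an overlap. These sums were made from genes picked in the same nuclei and only describe them. Ventral-like nuclei held 4.48 to 48.3 UMIs of these genes per 10000 UMIs, with a median of 17.3, and trajectory nuclei 0 to 36.3 with a median of 0. Of 2711 trajectory nuclei, 298 lay at or above the lowest ventral-like nucleus, 188 of them in the last of the 5 pseudo-time groups described below, and 12 at or above the ventral-like median. Of nuclei of GCyoung, the cluster of young granule cells, 16 of 188 at week 8 and 63 of 1979 at week 4 lay at or above that median. In GCmat2, the smaller mature cluster, 2 of 149 nuclei of week 8 did. The 15 lower genes summed to a median of 3.26 per 10000 UMIs in ventral-like nuclei (0 to 18.7) and 17.3 in trajectory nuclei (0 to 82.8), and 1471 trajectory nuclei were at or below the highest ventral-like nucleus.

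**Figure D2:**
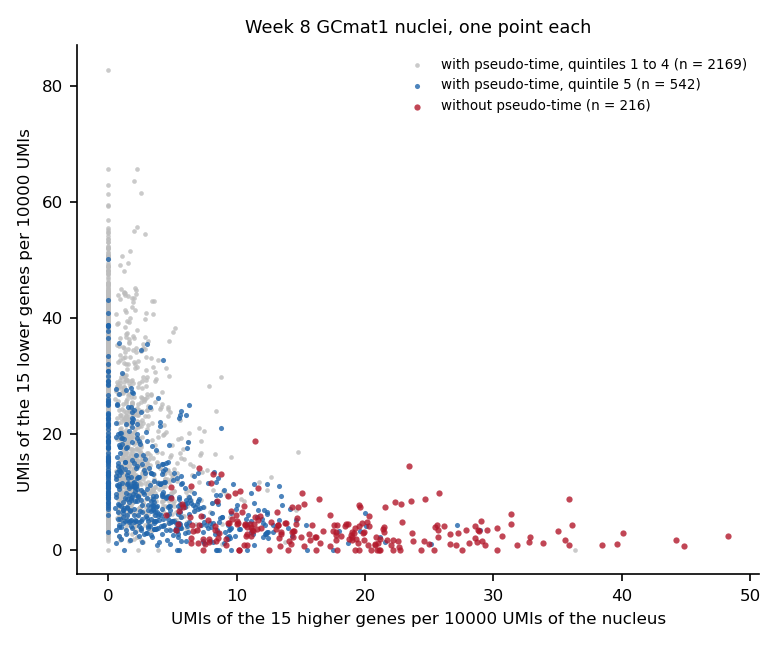
Each point is a GCmat1 nucleus of week 8. The horizontal axis gives the UMIs of the 15 higher genes and the vertical axis those of the 15 lower genes, both per 10000 UMIs of the nucleus. Nuclei without pseudo-time (red) extend along the horizontal axis from 4.48 to 48.3, and of nuclei with pseudo-time 298 reach 4.48 or more, 188 of them in quintile 5 (blue) and the others in quintiles 1 to 4 (grey), with the highest at 36.3 in quintile 1.

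By most of these 15 higher and 15 lower genes, trajectory nuclei late in pseudo-time were the nearest to the ventral-like nuclei. The 2711 trajectory nuclei were divided into 5 groups of nearly equal size by pseudo-time, from early (quintile 1) to late (quintile 5). All 15 higher genes had their highest level in quintile 5, and all 15 were higher still in ventral-like nuclei. That the ventral-like level exceeded quintile 5 was set by the choice of genes. The 15 genes were picked for large ratios to all trajectory nuclei, and quintile 5 held 6279944 of the 22925134 UMIs of those nuclei. Pde1a stood at 23.1, 24.6, 25.4, 31.6 and 146 CPM from quintile 1 to quintile 5, and Trhr at 0.615 CPM in quintile 1 and 3.66 in quintile 5. Over the 15 genes the median ratio was 0.999 between quintile 4 and quintile 1, 4.52 between quintile 5 and quintile 4, and 4.50 between ventral-like nuclei and quintile 5. All 15 lower genes were lower in quintile 5 than in quintile 4, with a median ratio of 0.495. For 14 of them quintile 5 was the lowest of the 5 groups, the exception being Grm3. All 15 were lower again in ventral-like nuclei, with a median of 0.260 of the level in quintile 5. Clmp stood at 108.5, 102, 95.4, 92.8 and 22.5 CPM, and then at 0. Gsg1l, Cdh18, Grm3 and Ntng1 took another course, with levels that were higher from each of the first 4 groups to the next before the lower level of quintile 5. Grm3 went from 32.9 CPM in quintile 1 to 93.2 in quintile 4 and 47.0 in quintile 5. The dorsal gene Stra6, which is not among the 15, went the other way, at 19.1, 20.7, 34.9, 31.4 and 34.4 CPM, so that quintile 1 was the nearest to the 17.1 CPM of ventral-like nuclei.

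Depth and sex moved with pseudo-time as well. The median depth was 5390, 6317, 7404, 9385.5 and 11235 UMIs from quintile 1 to quintile 5, the last close to the 10885 of ventral-like nuclei. The male share of nuclei with a call was 72.6% in quintile 1 and 93.9% in quintile 5, above the 83.5% of ventral-like nuclei, and Malat1 took 6.37% of UMIs in quintile 5. Their part in the course along pseudo-time was not tested. Of the 12 trajectory nuclei at or above the ventral-like median of the 15 higher genes, 11 were in quintile 5. Against quintile 5 alone, Trhr was 15.1 times, Chrm3 15.7 times and Cdh13 2.30 times higher in ventral-like nuclei, and Stk32b was 10.8 times, Cobll1 5.15 times and Pde1a 4.50 times higher.

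**Figure D3:**
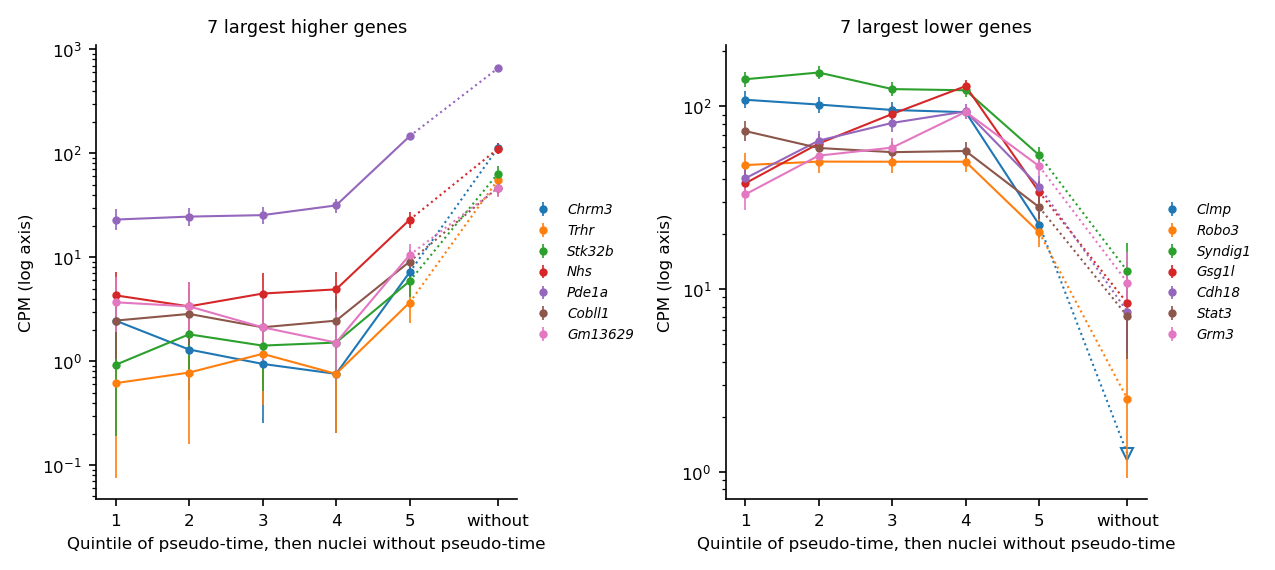
Levels of the 7 genes with the largest ratio in each direction along pseudo-time in week 8 GCmat1 nuclei. The horizontal axis gives the quintiles of pseudo-time from early (1) to late (5) and then nuclei without pseudo-time, the vertical axis CPM on a log scale, and bars are 95% exact Poisson intervals for counting error. Levels bend in quintile 5 and lie farther in the same direction in nuclei without pseudo-time, where Clmp (open triangle) is at the limit of 3 counts. For the higher genes, the step up from quintile 5 was set by how they were picked.

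A UMI of Trhr was also found in 30 trajectory nuclei of week 8, with a median depth of 9223.5 UMIs against 7829 in those without. Their share of 1.11% lies below the 6.25% that 0 of 48 glia allow, so it is not shown to be above free RNA. In these 30 nuclei, 12 of the 14 other higher genes were above and all 15 lower genes below the level of trajectory nuclei without Trhr, with median ratios of 2.33 and 0.495. The genes were picked against trajectory nuclei that include these 30. For this and the following counts, the share of all genes on the same side was not computed. Some of the ratios rest on few UMIs, such as that of Ano4, 1.02 (0.21 to 3.03) with 3 UMIs in the 30 nuclei. Of the 30, 16 were in quintile 5, and within that quintile the counts were 9 of 14 and 12 of 15, with median ratios of 1.87 and 0.497. In week 4, 9 nuclei of GCyoung and of GCmat1 with pseudo-time held a UMI of Trhr, and there the counts were 8 of 14 and 12 of 15, with median ratios of 1.23 and 0.685 and a median depth of 11412 UMIs against 7650 in those without. Clmp was at 19.6 against 78.6 CPM in the 30 nuclei, at a ratio of 0.47 (0.056 to 1.73) within quintile 5, and in week 4 it was higher in nuclei with Trhr, at 82.5 against 26.3 CPM (ratio 3.14, 1.35 to 6.24), as was Lct (2.81, 1.12 to 5.83). Ntng1 was lower in all 3 comparisons, with ratios of 0.30 (0.22 to 0.41), 0.46 (0.30 to 0.67) and 0.25 (0.031 to 0.92). The same comparison was made among ventral-like nuclei. Of the 14 other higher genes 12 were above, and of the 14 lower genes with any UMI 8 were below, in nuclei with Trhr, with median ratios of 1.57 and 0.831. Chrm3 stood at 175 CPM in the 82 ventral-like nuclei with Trhr and at 71.5 CPM in the 134 without, a ratio of 2.44 (1.90 to 3.15). Pde1a was at 719 and 617 CPM. Ventral-like nuclei without a detected UMI of Trhr thus still held both genes above the trajectory nuclei. With Chrm3 in place of Trhr, 331 nuclei of the same week 4 groups held a UMI. In those 331, 13 of 13 other higher genes were above and 11 of 15 lower genes below. Clmp was at a ratio of 0.52 (0.37 to 0.72) there and Lct at 0.46 (0.32 to 0.64). The dorsal gene Spata13 was above, at 1.27 (1.09 to 1.47), and Grm3, Timp3 and Olfm3 were at 1.11, 1.06 and 1.01. Chrm3, Mgat4c, Adamts18 and Ano4 were also at high levels in immature granule cells, as given below. The part of maturation in these counts was not tested. The opposite ratios in week 4 nuclei with Trhr rested on 8 UMIs of Clmp and 7 of Lct, and the lower ratio of Ntng1 there on 2 UMIs.

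Several of the higher genes were also at high levels in immature granule cells, and others were not. In GCimm2, a cluster of immature granule cells, at week 2, Chrm3 stood at 307 CPM, Mgat4c at 442, Adamts18 at 394, Ano4 at 103 and Epb4.1l4a at 49.3, all above the ventral-like nuclei. Of the 15 genes 9 were below the ventral-like level there, Pde1a at 29.1 CPM and Trhr at 1.40. In GCmat1 nuclei with pseudo-time Trhr stood at 1.61 CPM at week 8 and 1.97 CPM at week 4, and in GCyoung of week 4 at 0.317 CPM. No UMI of it was found in the oligodendrocytes and precursors of week 8, which allows up to 12.2 CPM. In GCyoung, the cluster of young granule cells, at week 8, Adamts18 (99.0 CPM) and Col19a1 (57.9 CPM) were above the ventral-like nuclei and the other 13 below. GCmat2, the smaller mature cluster, exceeded them at week 8 only for Col19a1 (94.8 CPM) among the 15. GCmat2 also held more Cdh13, 600 CPM, so this gene did not separate ventral-like nuclei from that cluster. Of the 15 lower genes, 14 were above the ventral-like level in GCmat2 and 10 in GCimm2. GCmat2 and GCyoung of week 8 were from the same library as the ventral-like nuclei, with median depths of 7254 and 7030.5 UMIs, and the part of depth was not tested. For GCimm2 of week 2 and the groups of week 4, cluster or week and library cannot be told apart. The male share of calls differed too, at 25.8% in GCimm2 of week 2 and 15.6% in GCyoung of week 4.

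**Figure D4:**
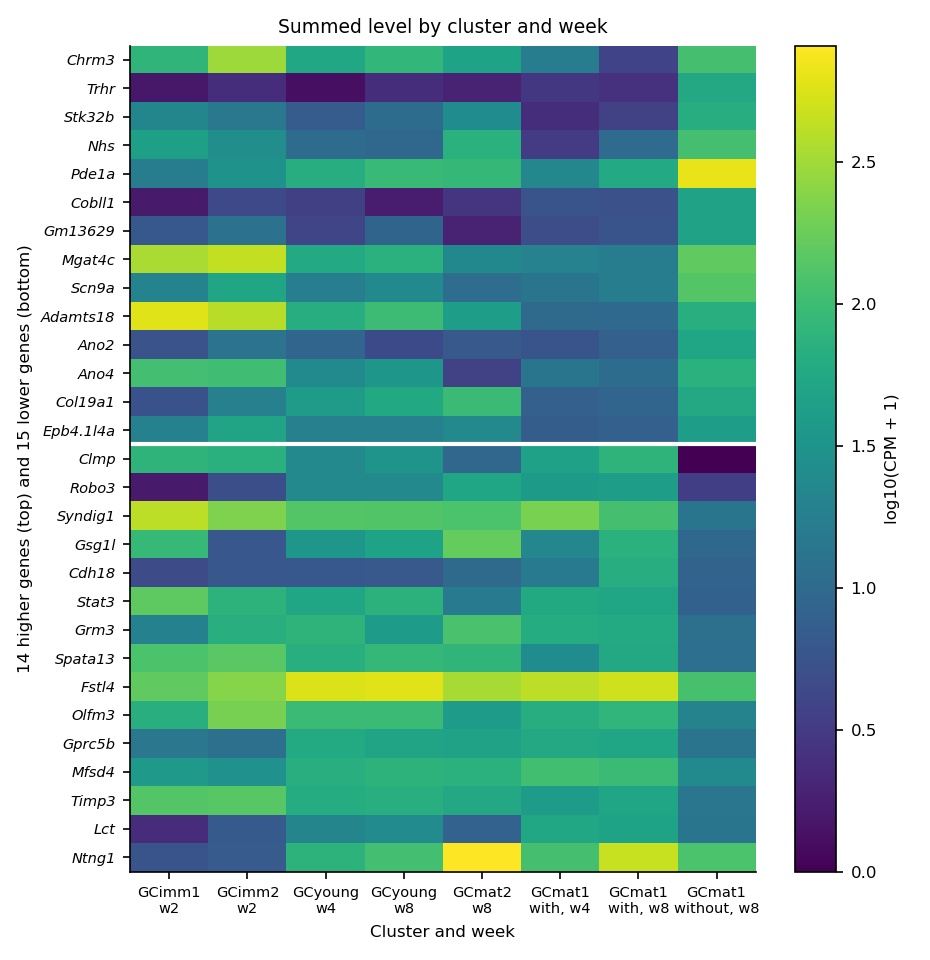
Levels of 14 of the 15 higher genes (top) and 15 lower genes (bottom) by cluster and week. The colour is log10 of CPM plus 1, to be read along each row, and columns are clusters in the named week, with GCmat1 nuclei split into those with and without pseudo-time. Trhr is brightest in the last column, Chrm3, Mgat4c, Adamts18 and Ano4 are brighter in GCimm2, and Clmp is darkest in the last column.

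Markers of granule cell identity were detected in the ventral-like nuclei, and some were lower. Prox1, the transcription factor that defines granule cells, stood at 386 against 306 CPM, Calb1, the calcium-binding protein calbindin of mature granule cells, at 136 against 118, and Dock10 at 1064 against 1265. Of 12 identity genes 10 passed the level filter, none was past 1.5-fold higher and 4 were lower, beside 3.91% of all genes, with a median ratio of 0.89. The 4 were Ntng1, Dsp (3.44 times), Plk5 (3.04 times) and Pdzd2 (2.50 times). Of 12 genes of immature granule cells 5 passed the filter. Chd5 and Camk4 were higher, 1.93 and 1.64 times, and Rgs6 was 3.14 times lower. Dcx, the doublecortin gene of immature neurons, stood at 27.9 against 30.1 CPM, a ratio of 0.93 (0.71 to 1.19), and Sox11 at 29.2 against 26.0 CPM. Among 5 genes known to be higher in GCmat1 than GCyoung, Car10 (2.39 times) and Chst9 (1.63 times) were higher and Ntng1 and Inpp4b (2.37 times) lower. Among 5 genes of the opposite kind, Slc8a1 (3.18 times), Pcdh15 (1.67 times) and Meg3 (1.59 times) were higher and Lin7a (2.06 times) lower. The study chose both of these short lists on these samples, so their direction is not independent evidence. Of 17 activity-induced genes 5 passed the filter, none was higher, and Acvr1c (2.03 times) and Bdnf (1.65 times) were lower. Bdnf, the brain-derived neurotrophic factor, was lower in male nuclei (ratio 0.55) but not in female nuclei (1.08). Only 34 ventral-like nuclei were female, and a difference between the sexes was not tested.

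Of the markers of other cell types 9 genes passed the filter and 3 of them were past 1.5-fold. Among the interneuron genes, Gad2, Slc32a1, Sst, Vip and Lhx6 had no UMI in ventral-like nuclei, which allows up to 1.25 CPM each. The others on that list, among them Gad1, Pvalb, Reln and Npy, had at least 1 UMI. Of 11 interneuron genes 3 passed the filter, with 1 past 1.5-fold higher and none lower. The summed level of the interneuron list was 2033 CPM in ventral-like and 2811 CPM in trajectory nuclei, most of it Adarb2, with 1926 and 2738 CPM. No gene of the mossy cell, CA1, oligodendrocyte precursor, vascular or Cajal-Retzius lists passed the filter, and their summed levels were 30.9, 3.75, 12.1, 5.84 and 1.25 CPM in ventral-like nuclei against 29.6, 4.67, 6.41, 5.67 and 1.70 CPM. In the CA2 and CA3 list 1 of 7 genes passed, Grik4, a kainate receptor subunit, at a ratio of 1.48 (1.39 to 1.58), and the list summed to 467 against 324 CPM, a ratio of 1.44 (1.35 to 1.53). Of 7 oligodendrocyte genes 2 passed and both were within 1.5-fold, with sums of 298 and 346 CPM. Of 7 astrocyte genes 2 passed, with Slc1a3 1.59 times lower and sums of 166 and 182 CPM. P2ry12, a microglial marker that overlaps Med12l on the opposite strand, was 1.56 times higher, while C1qa and Inpp5d had no UMI, and the microglial list summed to 73.0 against 55.2 CPM. The part of these lists in the differences was not tested.

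The lists of receptors and signalling partners are given beside the 8.84% of all genes that were past 1.5-fold either way. Of 40 aminergic and cholinergic receptors 4 passed the filter, with Chrm3 higher and the serotonin receptor Htr4 1.69 times lower. Of 34 measured peptide receptors 5 passed, with Trhr higher and Oprm1, the mu opioid receptor, 1.72 times lower. Chrm3 and Trhr are markers set for these nuclei and passed the filter only through their level in ventral-like nuclei. Their place in these lists therefore restates how the nuclei were chosen. The list made for Gq signalling also held regulators of other G proteins, such as Rgs6. Of its 18 genes past the filter none was higher, and Rgs6, Trpc4 (1.69 times) and Prkca (1.56 times) were lower. The median ratio was 0.88 over the 18 beside 1.01 over all genes. Among metabotropic glutamate receptors, Grm3 was the only one of 4 past 1.5-fold. Of 14 ionotropic glutamate receptor genes 3 were higher, among them Grin3a, a glycine-binding subunit of NMDA receptors (3.40 times), and Gria4 (1.85 times), and none was lower. Gabrg3 was the only one of 12 GABA receptor genes past 1.5-fold, 1.78 times higher.

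Ion channels lay on both sides. Of 27 potassium channel genes 3 were higher, Kcnn3 (1.99 times), Kcnk2 (1.84 times) and Kcnh7 (1.70 times), and 3 lower, Kcnk1 (2.44 times), Kcnt2 (2.04 times) and Kcnh5 (1.90 times). Of 16 genes past the filter in the list of sodium, calcium and related channels 2 were higher, among them Cacna2d3 (1.62 times), and Cacna1a, the pore of P/Q-type calcium channels, was 1.66 times lower. The sodium channel gene Scn9a, 8.33 times higher, was not on that list.

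The lists of adhesion and axon guidance genes are read beside the same 8.84%, and no test of a list was made. Of 9 Eph and ephrin genes past the filter 5 receptors were lower, namely Epha5 (3.17 times), Epha7 (2.49 times), Epha10 (1.83 times), Epha4 (1.77 times) and Epha3 (a ratio of 0.67, 0.60 to 0.74), and the ligand Efnb3 was 1.67 times higher. The median ratio of the 9 was 0.67, and their 17 listed genes summed to 3655 against 5305 CPM. Of 13 genes of slits, Robos and netrin receptors, 4 were lower, Robo3, Ntng1, Unc5d (3.34 times) and Robo2 (1.55 times), and 2 higher, the ligand Slit2 (2.51 times) and the netrin receptor Dcc (1.94 times). Of 15 cadherins and protocadherins 4 were higher, the marker Cdh13, Cdh10 (1.99 times), Pcdh15 and Cdh12 (1.65 times), and 2 lower, Cdh18 and Pcdh7 (2.06 times). Of 10 semaphorin, plexin and neuropilin genes 2 were higher, Plxnc1 (2.00 times) and Sema5b (1.91 times), and Sema6d was 2.14 times lower. Of 31 synaptic adhesion genes 5 were higher and 3 lower. The higher ones were Tenm4 (5.63 times), Cntn4 (4.42 times), Tenm2 (2.14 times), Tenm1 (1.59 times) and Nrxn2 (1.52 times), and the lower ones Flrt2 (2.31 times), Adgrl3 (1.98 times) and Cntn3 (1.71 times). Tenm4, Tenm2 and Tenm1 encode teneurins, which bind latrophilins such as Adgrl3 across the synapse, and the teneurin Tenm3 stood at 63.4 against 78.7 CPM.

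**Figure D5:**
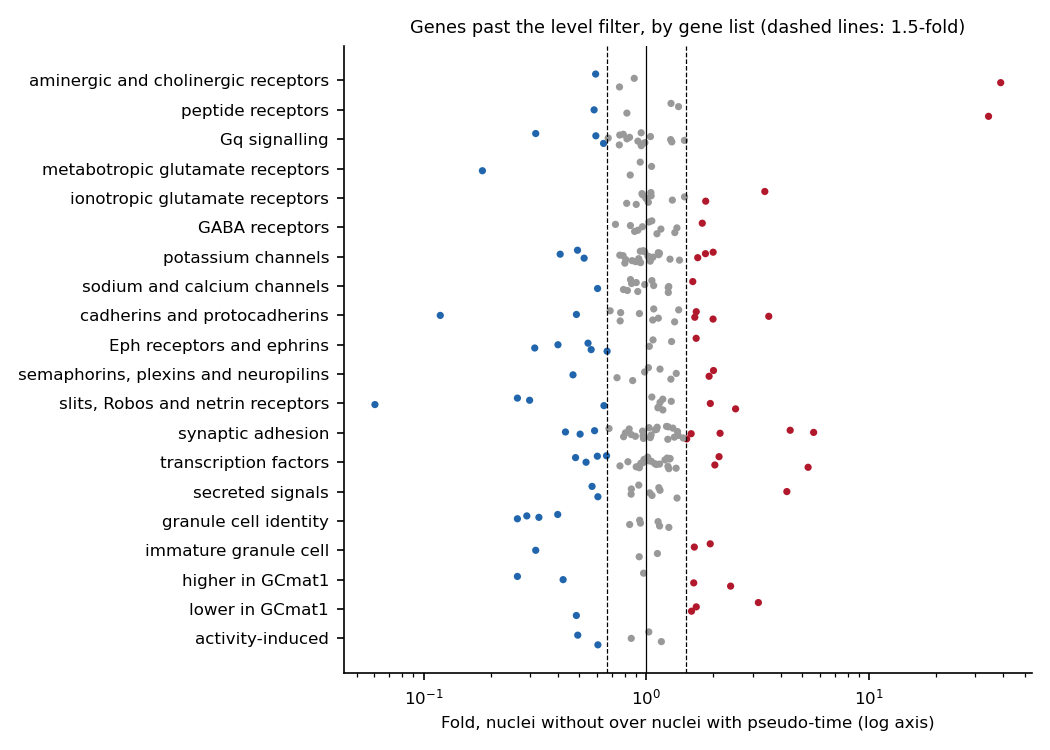
Ratio of the level in week 8 GCmat1 nuclei without pseudo-time to that in nuclei with pseudo-time, for genes past the level filter in each gene list. The horizontal axis is logarithmic, points are genes, dashed lines mark 1.5-fold, and red and blue points lie past them. Chrm3 and Trhr stand far to the right of their lists, which restates how the nuclei were chosen, and the Eph list lies mostly left of 1.

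The following counts are read beside the 4.93% of all genes that were higher and the 3.91% that were lower. Of 29 transcription factors past the filter 3 were higher, Tox3 (5.32 times), Npas3 (2.12 times) and Tshz1 (2.03 times), and 4 lower, Mkx (2.08 times), Neurod2 (1.87 times), Trps1 (1.66 times) and Zfhx4 (1.51 times). Of 11 secreted signals Fgf10, a fibroblast growth factor, was 4.27 times higher (3.26 to 5.55), with 84 UMIs against 188, and Nptx1 (1.75 times) and Bdnf were lower. Over all 32 lists together, 252 listed genes passed the filter, 37 were higher and 42 lower. The lists include the ventral and dorsal genes and were chosen with earlier results of these data known. These totals are therefore partly set by the choice of lists.

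The 4 ventral-like nuclei of week 4 held 44693 UMIs in total, and none had a male call. In that library the male share of calls was also low, 9.28% of GCmat1 nuclei with pseudo-time. A UMI of Cdh13 and of Pde1a was found in all 4, of Chrm3 in 3 and of Trhr in 1. Pde1a stood at 403 CPM and Chrm3 at 313 CPM, against 21.1 and 16.0 CPM in the 399 GCmat1 nuclei of week 4 with pseudo-time. No UMI of Clmp was found, which at this depth allows up to 67.1 CPM, above the 45.5 CPM of those nuclei, so a lower level of Clmp was not detectable at this depth.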

How the data were processed

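Dataset 1 comprised 4 single-nucleus libraries (weeks 1, 2, 4 and 8), each a pool. The authors counted UMIs with STARsolo 2.7.4a on mm10, removed doublets with scDblFinder, low-quality nuclei and a group of week 4 nuclei, and named the clusters. The deposited count matrices hold whole UMI counts for 45706 features. The deposited table holds log2 expression of 13353 genes (counts over scran size factors plus 1), with cluster and pseudo-time per nucleus, and served for the groups and for 1 alternative. Kept nuclei held 13227971 to 28595331 UMIs per library.

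UMIs were summed over nuclei and divided by their total (Python 3.11.15, numpy 2.4.6, scipy 1.17.1, pandas 2.3.3). Intervals are exact Poisson for levels, exact conditional binomial for ratios and Clopper-Pearson for shares, at 95%, and a count of 0 allows 3 counts. Ratios were checked on simulated counts. Reads of 1 pool are not replicates, so no test was made. Genes with a mean level of at least 20 CPM were counted as past 1.5-fold. Thinning to 2000 UMIs left out no nucleus. A nucleus was called male where summed Ddx3y, Eif2s3y and Uty UMIs exceeded those of Tsix plus Xist, and female in the opposite case. List genes were matched by Ensembl ID, and Galr3 was not matched. Positions are from GENCODE M21.

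Named were the 3 markers, the ventral and dorsal genes, the 15 largest ratios each way with the same direction in both sexes, and list genes past 1.5-fold, as examples or, where few, all. Beyond that rule, values of Tenm3 and of identity, immature and marker genes within 1.5-fold were added after they were seen. The nuclei, lists and tests were chosen with earlier results of these data known. The number of nuclei the methods give as left out of the trajectory is larger than the number without pseudo-time in the deposited table, and the difference was not resolved. Results of a few genes are not reported here, although counts and sums include them.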

Additional observations from a re-analysis of the deposited data

Results flagged for a closer look

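Barcodes that the authors gave no cluster also held Trhr. In the week 8 library 5 of 268 such barcodes had a UMI of Trhr. As a share this lies below the 6.25% that 0 of 48 oligodendrocytes and precursors allow, so it is not shown to be above background. Their median depth was 13997 UMIs, Cdh13 stood at 520 CPM and Pde1a at 130 CPM, and no UMI of Chrm3 or Clmp was found. In the week 4 library 13 of 1628 such barcodes had a UMI of Trhr, a smaller share, and no background share was computed for that library, so these are not shown to be above background either. Their median depth was 11968 UMIs, Chrm3 stood at 1181 CPM, Mgat4c at 2257 CPM and Pde1a at 1029 CPM, against 47.0, 65.3 and 41.5 CPM in the other 1615. These barcodes include doublets and low-quality nuclei and, at week 4, a group that the authors removed, and 1056 of the 1628 had a male call. Whether the barcodes with Trhr are single granule cell nuclei was not tested.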

How the results depend on the processing

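No paired analysis was possible because both groups of the main comparison come from the same pooled week 8 library and no test was made, and no replicate could be left out. The depth-matched, Malat1-free and last-quintile comparisons were chosen after seeing the data. Ratios were recomputed for 33 genes (the markers, the ventral and dorsal genes and the largest ratios other than Clmp), and none of these turned in direction under a setting that gave a value. Of the 30 besides the markers, 24 moved by over 1.5 times against the last quintile, 9 of 29 after thinning, 6 in female nuclei and 28 of 28 in the authors' log2 values. Of 99 named genes past 1.5-fold, Bdnf turned in direction in female nuclei. The ratio of Trhr against trajectory nuclei without a UMI of Trhr has none. The 284 higher and 225 lower genes became 568 and 498 after thinning to 2000 UMIs, 817 and 573 in female nuclei alone, 111 and 71 at 2-fold, 687 and 638 at a mean of 5 CPM, 136 and 97 at 50 CPM, 3253 and 1835 with no filter, and 43 and 18 in the authors' log2 values, where 16 and 6 listed genes passed. Of the 284 and 225 genes, 232 and 176 were shared with the thinned counts. Thinning and female nuclei leave fewer UMIs per gene, but the cause of the change was not tested for any setting. The lower genes were 362 over the total of the table's genes and 119 against the last quintile. Trhr was 53.3 times higher in female nuclei, 23.4 times against 3 depth-matched nuclei per nucleus and 15.1 times against the last quintile. Chrm3 was 25.2 times higher over all libraries, 61.9 times at matched depth and 15.7 times against the last quintile. Cdh13 was 2.78 times higher against the later pseudo-time, 3.82 times over all libraries and 2.30 times against the last quintile. In the authors' log2 values, where 1 is added before the log, the ratios were 1.30, 1.46 and 2.49. Thinning moved the shares of nuclei with a UMI from 38.0 to 10.6% (Trhr), 16.7% (Chrm3) and from 93.1 to 60.2% (Cdh13) in ventral-like nuclei, and to 0.406, 0.516 and 20.9% in trajectory nuclei. All other values of counts, marker ratios and sex stayed within 1.5 times or their counting interval.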
